A study of Mus musculus with 2 samples.

Results

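Wing cells, the flattened suprabasal cells that lie between the basal layer and the surface squames of the corneal epithelium, made up 9040 of the 33885 cells of a single-cell RNA data set of mouse cornea. They were taken as every cell that the deposited cell table names Wing, without an asterisk. A smaller class named Wing* was kept apart. The study compared epithelium from control eyes and dry eyes of 7 male C57BL/6J mice aged 10 weeks, whose extra- and intra-orbital lacrimal glands had been cut out on the right side. Tissue was taken on day 9. The control library pooled the 7 left eyes and the dry eye library pooled 6 right eyes, because 1 right eye with an injury was left out. Both libraries thus came from the same animals, each was a pool, and the side of the eye cannot be told apart from the treatment. With 1 library per group there is no test between groups: intervals in brackets are exact 95% intervals that cover counting error only, and no ratio has a replicate check.

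The cornea is covered by a stratified epithelium that does not cornify in health. Basal cells divide on the basement membrane, and their daughters move up, stop dividing and become wing cells, which are tied together by many desmosomes. Wing cells then flatten into surface squames, which carry tight junctions and membrane mucins. Keratins 5 and 12 form the main keratin pair of corneal epithelium. A dry or irritated ocular surface is known for turning on keratins and envelope proteins of skin.

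The Wing class held 5651 of 17465 control cells, a share of 32.4% (31.7 to 33.1), and 3389 of 16420 dry eye cells, a share of 20.6% (20.02 to 21.3). Control had 1.34 Wing cells per Basal cell (1.28 to 1.39), and dry eye had 1.19 (1.13 to 1.25). Control had 1.85 per Squam cell (1.77 to 1.93), and dry eye had 1.14 (1.08 to 1.20), so Wing cells were fewer relative to both neighbouring layers. With Wing* cells counted in, dry eye had 1.34 per Basal cell, the same as control Wing, and 1.29 per Squam cell. Shares depend on how each pool was dissociated, and the part of this in the shares was not tested. Wing cells held 44.0% of all unique molecular identifiers (UMIs, counted RNA molecules) in control and 30.3% in dry eye. Their median depth was 10706 UMIs and 2605 genes in control and 11815 UMIs and 2608 genes in dry eye, and mitochondrial RNA had a median of 1.67% and 1.78%. Cell barcodes found in both libraries numbered 74, of which 25 were Wing in control, 15 Wing in dry eye and 5 Wing in both.

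The 6 marker genes chosen for wing cells were checked in 7 epithelial classes named without an asterisk (LSC, TAC1, TAC2, Basal, Wing, Squam and Conj). Levels are CPM, a gene's UMIs scaled to the same total in every class and library. The classes were made from the expression of these cells, so a level in Wing against another class is a description and no test. Cldn17, which encodes a claudin of tight junctions (chr16:88505807-88506978, minus strand, GENCODE annotation of mm10), was at 19.7 CPM in control Wing and 31.9 in dry eye Wing, against 5.10 CPM in control Conj and 5.24 in dry eye Squam, the next classes. Muc15, a membrane mucin (chr2:110721340-110739527, plus strand), was at 178 CPM in control and 164 in dry eye, against 69.9 and 67.5 in Conj. Dsg1a, a desmosomal cadherin, was at 523 and 400 CPM, against 297 and 218 in Conj. In both libraries and for each of these genes Wing was the highest of the 7 classes.

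Gsta2, a glutathione transferase, was at 438 CPM in control Wing and 367 in dry eye Wing, against 199 and 175 in Conj. Spink7, a serine protease inhibitor, was at 50.3 and 39.7 CPM, against 29.8 in control Basal and 27.1 in dry eye TAC2. Dlg2, a scaffold protein of the membrane, was at 36.4 and 21.5 CPM, against 17.3 and 10.98 in Basal. To compare shares of cells at 1 depth, 3000 UMIs were drawn from each cell, which left 5475 control and 3291 dry eye Wing cells. The share of cells with a UMI was then highest in Wing for all 6 markers in both libraries. It ran from 5.55% for Cldn17 to 76.3% for Dsg1a in control, and from 5.29% for Dlg2 to 65.9% for Dsg1a in dry eye. Reads of near-identical family members (Dsg1a with Dsg1b, Gsta1 with Gsta2, Krt6a with Krt6b, Sprr1a with Sprr1b, Krt14 with Krt16) can be split by the counting, which makes single members uncertain.

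**Figure D1:**
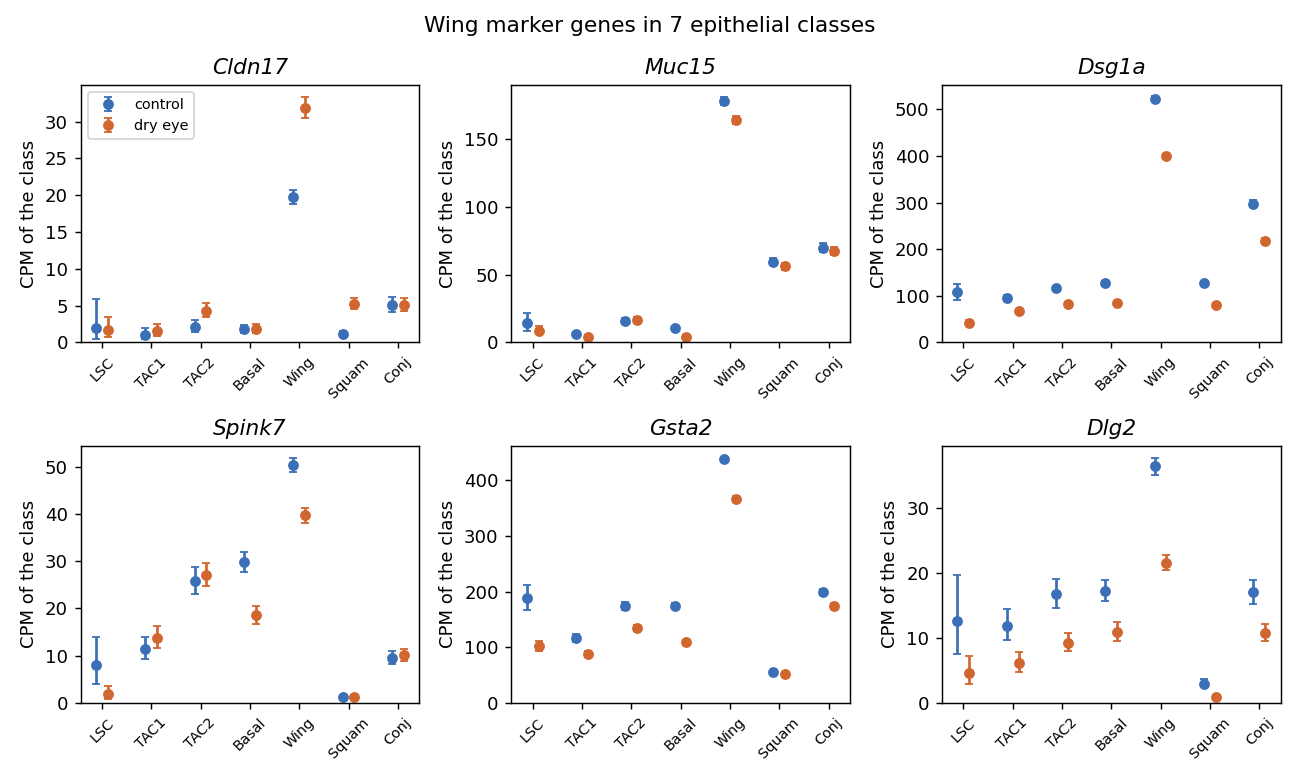
Level of the 6 Wing marker genes in 7 epithelial classes (vertical axis, CPM of the class, linear from 0), with 1 point per library and exact 95% Poisson intervals from counting alone. Wing is the highest class in both libraries for each gene, for example at 178 and 164 CPM for Muc15.

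A rule that ranks genes by Wing over the next highest of the other 6 classes in control gave 12 leading genes. All 12 were also highest in Wing in the dry eye library, and 8 were among the 12 leading genes ranked there. Muc15 led with 2.55-fold over the next class in control and 2.43-fold in dry eye. Fermt3, a kindlin that activates integrins, was 2.35-fold and 2.54-fold above Conj. Fam25c was 2.25-fold above Basal in control and 1.91-fold above Squam in dry eye. Homer2, a scaffold protein, was 2.04-fold and 1.87-fold above TAC2. Egln3, an oxygen-sensing prolyl hydroxylase, was 1.85-fold and 2.04-fold above Conj. Lypd3, a surface protein of stratified epithelia that is bound to the membrane by a lipid anchor, was 1.79-fold and 2.38-fold above Conj. Each of these genes was thus also measured in the next class, and none belonged to Wing alone.

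By gene list, desmosome genes were most often highest in Wing. Of 6065 genes with at least 20 CPM in a class of each library, 536 were highest in Wing in both libraries, or 8.84%, and every list is read beside that share. For desmosomes it was 8 of 11 members. Dsp, the desmoplakin that links desmosomes to keratin (chr13:38151294-38198577, plus strand), was at 1480 CPM in control Wing and 1461 in dry eye Wing, against 617 and 556 in Basal and 467 and 480 in Squam. Perp, a desmosomal membrane protein, was at 2296 and 2396 CPM in Wing, 918 and 835 in Basal and 758 and 930 in Squam. Pkp1, a plaque protein, was at 278 and 316 CPM in Wing, 84.2 and 75.8 in Basal and 125 and 154 in Squam. Dsc2 and Dsg3, both desmosomal cadherins, followed the order of Pkp1, with Wing above Squam and Squam above Basal, with 508, 252 and 89.2 CPM for Dsc2 in control. Dsg2, the cadherin of simple epithelia, went the other way, with 19.3 CPM in control Wing, 31.1 in Basal and 52.6 in Squam.

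Tight junction genes were placed differently, with 0 of 13 highest in Wing and 11 of 13 highest in Squam in both libraries. Cldn17, also in this list, is not among the 13, because its highest control level of 19.7 CPM missed the minimum of 20 CPM, and it was highest in Wing. Tjp1, the scaffold of the tight junction, was at 38.1 CPM in control Basal, 97.3 in Wing and 364 in Squam. Ocln, or occludin, was at 5.86, 32.4 and 54.3 CPM. Basement membrane adhesion genes had 0 of 11 highest in Wing. Col17a1, the collagen of the hemidesmosome, was at 1154 CPM in control Basal, 304 in Wing and 34.9 in Squam. Gap junction genes were split: Gjb2 was highest in Wing, at 48.5 CPM in control against 15.96 in Basal, while Gja1 was at 72.1 CPM in Wing against 345 in Basal. Of adherens junction genes 3 of 9 were highest in Wing (Cdh1, Nectin1 and Nectin4). Notch pathway genes had 2 of 9, the receptor Notch3 and the feedback regulator Nrarp.

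Among the 16 genes of a list named corneal identity 5 were highest in Wing in both libraries. The list also holds genes that are not particular to cornea, among them Krt5, Cdkn1a and Ldha, so its counts do not measure corneal identity as such. Krt12, the corneal keratin (chr11:99415666-99422259, minus strand), was at 30950 CPM in control and 31536 in dry eye Wing, against 20264 and 18825 in Basal and 12305 and 17322 in Squam. Krt5 was at 9618 and 9620 CPM in Wing and at 5247 and 5384 in Basal. Klf4, a transcription factor of corneal and other barrier epithelia, was at 920 and 1132 CPM in Wing and 722 and 1064 in Squam. Cdkn1a, which encodes an inhibitor of cell division, was at 397 and 444 CPM in Wing, 31.5 and 22.1 in Basal and 207 and 311 in Squam. Gsta4, a glutathione transferase that acts on products of lipid peroxidation, was at 15652 and 13259 CPM in Wing and 4061 and 3146 in Basal. Pax6, the master transcription factor of eye tissue, was not among the 5, at 426 CPM in control Wing and 453 in Basal.

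Genes of lipid synthesis were also often highest in Wing. In the lipid list it was 6 of 15 members. Lists for cholesterol synthesis and fatty acid synthesis were added after these values were seen, and hold 16 of 23 and 8 of 13 members that were highest in Wing in both libraries. Sqle, which makes squalene epoxide, was at 219 CPM in control Wing and 187 in dry eye Wing, 47.0 and 39.2 in Basal and 148 and 147 in Squam. Fdps, which makes farnesyl diphosphate, was at 897 and 1024 CPM in Wing and 216 and 209 in Basal. Scd2, a fatty acid desaturase, was at 673 and 546 CPM in Wing and 308 and 235 in Basal. Insig1, which holds back this pathway when sterol is plentiful, was highest in Squam, at 657 CPM in control against 138 in Wing.

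The promoters of 17 of the 23 cholesterol synthesis genes were in a RefSeq table of build GRCm38.p6. Bases 250 to 21 upstream of the annotated start were searched on both strands. The letters CCAAT, the core bound by NF-Y, were in 14 of the 17, in 32.8% of all 27025 promoters in the table, and in 35.3% of those of genes with at least 50 UMIs in Wing. TCACCCCAC, a form of the sterol regulatory element, was in 1 of the 17, that of Hmgcs1, and in 0.396% of all. The promoters of Hmgcs1 (chr13:119690101-119690330, plus strand) and Lss (chr10:76531355-76531584, plus strand) are shown because Hmgcs1 held both motifs and Lss, the enzyme that closes the first sterol ring system, was at 13.9 CPM in control Basal and 57.4 in control Wing. Capitals mark both motifs, which do not overlap, and a CCAAT on the other strand reads ATTGG. A match is a description of letters and no evidence of binding.
Hmgcs1: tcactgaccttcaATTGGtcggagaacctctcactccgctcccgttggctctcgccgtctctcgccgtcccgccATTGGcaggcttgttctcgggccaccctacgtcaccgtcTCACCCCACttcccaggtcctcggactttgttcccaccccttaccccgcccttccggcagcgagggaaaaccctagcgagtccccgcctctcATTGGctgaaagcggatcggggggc
Lss: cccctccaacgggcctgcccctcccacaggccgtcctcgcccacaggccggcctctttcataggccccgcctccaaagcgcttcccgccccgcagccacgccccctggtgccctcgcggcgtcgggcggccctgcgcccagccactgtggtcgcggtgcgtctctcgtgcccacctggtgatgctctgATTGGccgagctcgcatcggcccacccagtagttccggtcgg
Hmgcs1, a synthase early in this pathway, was at 236 CPM in control Basal, 354 in Wing and 227 in Squam.

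**Figure D2:**
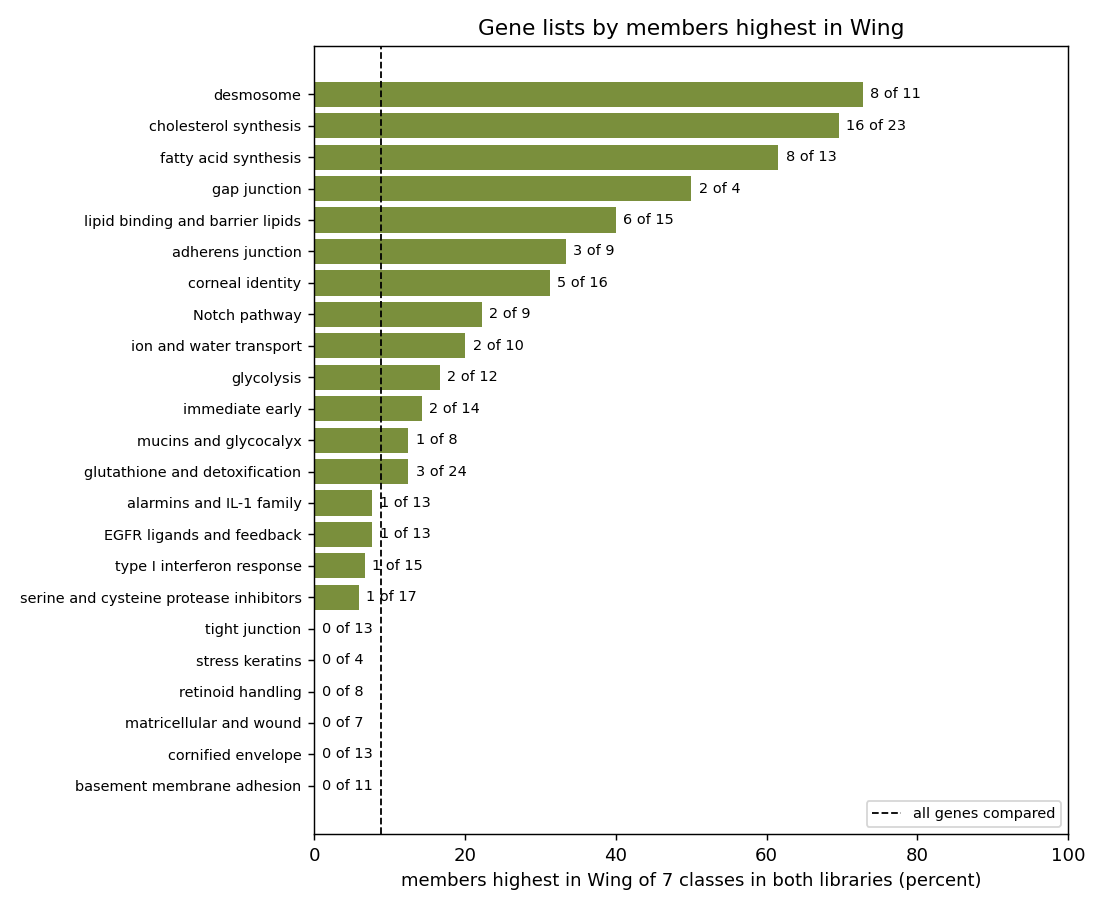
Percent of the compared members of each gene list that were highest in Wing among 7 classes in both libraries (bars, linear from 0), with counts beside them. The dashed line marks all genes compared, at 8.84%; desmosome genes reach 8 of 11 and tight junction genes 0 of 13.

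Wing lay between its neighbours in most layered genes. With steps of at least 1.5-fold, 545 of 5530 genes in control were higher in Wing than in Basal and higher again in Squam. In 772 genes the level was lower at each of these steps. Only 304 were highest in Wing and 30 were lowest there. In dry eye the counts of the same 4 patterns were 576, 1042, 303 and 21 of 5410 genes, and 231 genes were highest in Wing in both libraries. These 231 made up 76.0% of the control genes and 76.2% of the dry eye genes of that pattern. Their median dry eye over control log2 ratio in Wing was -0.13, with 2 at least 1.5-fold higher and 5 at least 1.5-fold lower, beside a median of -0.14 over all 12266 genes with at least 50 UMIs in Wing. Squamous markers took a median of 50 of 3000 UMIs in a control Wing cell and 42 in a dry eye Wing cell, against 21 and 18 in Basal and 203 and 180 in Squam. Basal markers other than keratins took a median of 2 in both, against 8 and 7 in Basal and 1 and 1 in Squam. With keratins counted in, the order changed and basal markers were highest in Wing of these 3 classes. Their medians were then 37 and 39 in Wing, 24 and 26 in Basal and 16 and 19 in Squam. Over control Wing cells the squamous markers ran from 27 UMIs at the 10th percentile to 99 at the 90th, which lies between the medians of Basal and Squam.

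Few Wing cells had RNA of dividing cells. A UMI of Mki67 or Top2a, both made in cycling cells, was found in 1.32% (1.03 to 1.65) of thinned control Wing cells. The dry eye share was 1.88% (1.45 to 2.41). The shares were 0.335% and 0.876% in Squam, 2.39% and 2.35% in Basal and 64.6% and 65.2% in TAC2. The intervals of the Wing shares overlapped between the libraries, and free RNA can give UMIs of these genes in any class.

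Each Wing cell was set against the mean profile of every class. Wing was the best match for 74.6% of control cells and 56.6% of dry eye cells. Basal matched best in 13.8% and 11.3%, Conj in 10.0% and 9.24%, and Squam in 1.49% and 2.39%. Squam* matched best in 0.0354% of control and 8.82% of dry eye Wing cells, TAC2* in 0.0177% and 5.22%, and Wing* in 0 of 5651 and 5.19%. A count of 0 among 5651 has an exact upper limit of 0.0653%. The Wing* and Squam* profiles were made from dry eye cells alone, since these classes held 12 and 0 control cells and a library entered a profile with at least 20. Part of the difference is therefore built into these profiles.

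Within Wing, dry eye differed from control in a small set of genes that reached high ratios. Of 4755 genes that had 50 or more UMIs in total and reached 20 CPM in either library, 48 were at least 2-fold higher in dry eye (1.01%) and 4 at least 2-fold lower (0.0841%). The median log2 ratio of these genes was -0.11, and scaling by size factors in place of totals shifted it by 0.13 to 0.03. Main keratins and adhesion genes were near that median. Krt5 was at 9618 and 9620 CPM. The ratio was 1.02 for Krt12, 0.987 for Dsp and 1.10 for Gja1, and these 4 genes stayed within 1.5-fold under size factors. Pax6 had a ratio of 0.840. Of the 6 Wing markers Cldn17 had a ratio of 1.62 (1.52 to 1.73) and Dlg2 of 0.591 (0.554 to 0.631), and the other 4 lay between 0.764 for Dsg1a and 0.921 for Muc15. The ratio of Cldn17 depended on the cells taken, with Wing cells grouped by the class other than Wing with the nearest profile. It was 0.952 (0.810 to 1.11) in those nearest to Basal and 0.673 (0.557 to 0.808) in those nearest to Conj. In those nearest to Wing* it was 1.63 (1.46 to 1.83). The grouping uses the expression of these same cells and a Wing* profile made from dry eye cells alone, so these ratios are descriptions.

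The largest ratios belonged to envelope proteins of skin and to basal and stress keratins. Sprr1b, a small proline-rich protein that is cross-linked into the cornified envelope (chr3:92436809-92438789, minus strand), had 0 UMIs in control Wing and 4064 in dry eye Wing, or 0 and 64.8 CPM. The ratio was 1821 with control set to the floor, 3 counts in its library, and its exact lower limit was 1480. Sprr1a, its neighbour (chr3:92483952-92485895, minus strand), was at 22.2 CPM in control and 680 in dry eye, for a ratio of 30.6 (29.3 to 32.1). Cnfn, or cornifelin, another envelope protein (chr7:25367620-25369724, minus strand), was at 0.984 and 57.8 CPM, a ratio of 58.7 (47.2 to 73.9). Cdsn, the corneodesmosin that holds skin squames together (chr17:35552128-35557180, plus strand), was at 0.866 and 23.1 CPM, a ratio of 26.7 (21.1 to 34.3). All 4 were thus close to absent in control Wing or, for Sprr1a, low.

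Krt14, the partner of Krt5 in basal cells (chr11:100203162-100207548, minus strand), was at 27.9 CPM in control Wing and 577 in dry eye Wing, a ratio of 20.7 (19.8 to 21.6). Krt16, a keratin of stressed and wounded epithelium (chr11:100246091-100248902, minus strand), was at 12.9 and 325 CPM, a ratio of 25.2 (23.7 to 26.8). In control 50.6% of the Krt16 UMIs lay in 10 cells. Without the 10 cells of each library with most of its counts, a choice made per gene, the log2 ratio of Krt16 was 5.46 in place of 4.65. Krt6a, which was high in both, was at 4077 and 6322 CPM, a ratio of 1.55, and Krt6b at 2329 and 3154 CPM, a ratio of 1.35. Krt17 was at 1.90 and 7.06 CPM.

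S100a7a, a psoriasin-like alarmin (chr3:90654017-90658669, plus strand), had a ratio of 20.2 (17.2 to 23.8), from 1.94 to 39.3 CPM. Ndrg1, a gene known to respond to low oxygen and to differentiation (chr15:66929318-66969640, minus strand), had a ratio of 7.42 (6.90 to 7.99), from 10.2 to 75.4 CPM. Ratios of Cryba4, a crystallin, Ifitm3, an interferon-induced membrane protein, Shroom3, an actin regulator of cell shape, and Sbsn, or suprabasin, lay between 4.60 and 6.05. For Ifitm3 the log2 ratio was 0.54 in place of 2.35 once a bound for free RNA was subtracted. Wing had the lowest share of cells with Ifitm3 of the 7 classes in dry eye.

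**Figure D3:**
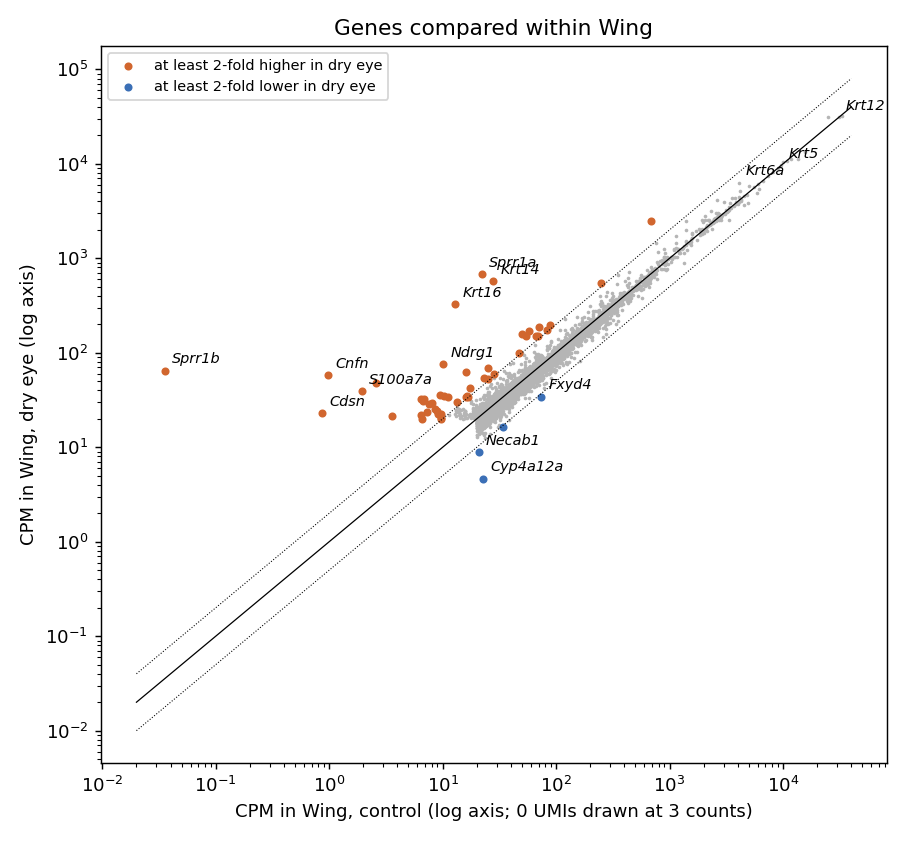
Level of each of 4755 genes in Wing, control (horizontal) against dry eye (vertical), in CPM on log axes; the solid line marks equal levels and the dotted lines 2-fold, and Sprr1b with 0 control UMIs is drawn at 3 counts. The 48 genes at least 2-fold higher run from close to the upper dotted line, such as Phlda1 at a ratio of 2.20, to far above it, such as Cnfn at 58.7. Krt12 and Krt5 lie on or near the solid line.

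Upstream bases of Sprr1a, Sprr1b and Sbsn, envelope genes among the 12 highest, were read from the RefSeq promoter table (GRCm38.p6, bases 250 to 21 before the annotated start, strand of the gene). TGANTCA, the site of AP-1 factors, which reads the same on both strands, was searched for. It was in 4 of the 10 promoters matched among the 12 highest genes (Sprr1a, Sprr1b, Sbsn and Ifitm3), in 0 of 8 among the 12 lowest, in 4.30% of those of genes with at least 50 UMIs in Wing and in 6.45% of all 27025. The promoters of Sprr1a (chr3:92485902-92486131, minus strand), Sprr1b (chr3:92438800-92439029, minus strand) and Sbsn (chr7:30751221-30751450, plus strand) are shown with these letters in capitals.
Sprr1a: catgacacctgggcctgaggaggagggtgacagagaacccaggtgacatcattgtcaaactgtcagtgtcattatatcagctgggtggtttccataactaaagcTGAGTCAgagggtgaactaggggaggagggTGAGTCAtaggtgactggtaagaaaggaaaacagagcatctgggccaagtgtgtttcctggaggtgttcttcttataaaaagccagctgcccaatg
Sprr1b: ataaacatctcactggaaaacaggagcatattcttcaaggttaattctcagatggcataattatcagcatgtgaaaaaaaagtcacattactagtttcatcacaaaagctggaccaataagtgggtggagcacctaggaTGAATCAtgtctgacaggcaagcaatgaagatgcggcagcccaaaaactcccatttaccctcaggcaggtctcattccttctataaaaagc
Sbsn: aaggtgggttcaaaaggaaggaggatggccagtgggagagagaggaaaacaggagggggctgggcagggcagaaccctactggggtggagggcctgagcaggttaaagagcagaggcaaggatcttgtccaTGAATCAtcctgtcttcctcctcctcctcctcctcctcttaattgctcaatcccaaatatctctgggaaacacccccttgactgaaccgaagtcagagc
Sprr1a held 2 matches, which start 146 and 116 bases upstream, and Sprr1b and Sbsn 1 each, which start 111 and 119 bases upstream. With 10 promoters this is a description and no test.

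The lower end was flatter. Cyp4a12a, a fatty acid hydroxylase of the cytochrome P450 family (chr4:115299046-115332815, plus strand), was at 22.6 CPM in control and 4.65 in dry eye, for a ratio of 0.206 (0.182 to 0.233). Necab1, a calcium-binding protein, was at 20.8 and 8.91 CPM, a ratio of 0.428 (0.388 to 0.471). Fxyd4, a regulator of the sodium pump (chr6:117933559-117937692, minus strand), was at 73.9 and 34.4 CPM, a ratio of 0.466 (0.443 to 0.489). Sdccag8, a centrosomal protein, had a ratio of 0.483 (0.449 to 0.518). Under size factors Cyp4a12a and Necab1 stayed past 2-fold and Fxyd4 and Sdccag8 were at log2 ratios of -0.97 and -0.92. The other 8 of the 12 lowest ran from 0.504 for Ttc36 to 0.567 for Gsta3. Among them were Cyp26b1, which breaks down retinoic acid, at 38.6 and 19.5 CPM, and Tsc22d3, a glucocorticoid-induced gene, at 78.9 and 42.7 CPM. With the free RNA bound subtracted Tsc22d3 was at a log2 ratio of -0.39 and Gsta3 at -0.29.

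Gene lists were counted at 1.5-fold over members with at least 50 UMIs. Of all 12266 such genes 613 were higher (5.0%) and 789 lower (6.43%), with a median log2 ratio of -0.14. Members low in control pass the minimum of 50 UMIs only through dry eye, so counts of members are descriptions. Of 36 cornified envelope genes 22 had 50 UMIs, of which 14 were higher and 0 lower, with a median of 0.94. Beside those above they included Krtdap, Flg, Lce3c, Dmkn and Tgm1, the transglutaminase that builds the envelope, at a log2 ratio of 1.03. Ivl, Ppl and Evpl, which encode the first scaffold proteins of the envelope, were at 0.00, -0.11 and -0.20. Stress keratins had 3 of 4 higher. Of 19 protease inhibitors measured 8 were higher and 0 lower, among them Serpinb2, from 0.225 to 3.27 CPM, and Spink5, the inhibitor of skin kallikreins, from 57.3 to 168 CPM. Csta1, Stfa3, Cstdc4 and Cstdc5 count in this list and in the cornified list. Of 15 alarmins 4 were higher: S100a7a, S100a8, S100a9 and Tslp. In 10 cells lay 66.5% of the dry eye UMIs of S100a9.

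Of 17 glycolysis genes 4 were higher and 0 lower, with a median of 0.42: Pfkp at 0.711 and 3.67 CPM, Hk2 at 6.71 and 15.6 CPM, Slc16a1 and Pkm. With the free RNA bound subtracted the log2 ratio of Hk2 was 0.54 in place of 1.22, under 1.5-fold, and in the cells nearest to Conj it was 0.12. Of 10 matricellular and wound genes 5 were higher, among them Sparc, from 1.80 to 6.69 CPM, and Plaur, the receptor of urokinase, with 4 and 123 UMIs. Of 14 basement membrane adhesion genes 4 were higher, among them Lamb3, from 1.81 to 3.78 CPM, and Itga3, while Col17a1 was at -0.04. Less the free RNA bound, Itga3 was at 0.00 in place of 0.78. Of 14 EGFR pathway genes 3 were higher, with the ligand Hbegf at 54.2 and 150 CPM and the feedback gene Phlda1 at 69.0 and 152 CPM. Of 11 retinoid genes 3 were higher, among them Crabp2 and Aldh1a3, and Cyp26b1 was lower. Aldh1a3, which makes retinoic acid, was at 70.6 and 185 CPM. Of 22 lipid genes 6 were higher, led by Fabp4, from 0.356 to 4.86 CPM, and Elovl4, while 0 of 23 cholesterol synthesis genes passed 1.5-fold in either direction. Of 21 type I interferon genes 6 were lower and 2 higher, with a median of -0.31. Usp18 was at 3.56 and 1.35 CPM and Oasl1, against the others, at 23.4 and 54.1 CPM. With the free RNA bound subtracted the log2 ratio of Usp18 was -0.50 in place of -1.39.

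Lists of structure showed small ratios. Of the 16 genes in the list named corneal identity 0 passed 1.5-fold, with a median of -0.00, and the same held for 12 Notch pathway genes, at -0.03. Among 12 desmosome genes 1 was lower, Pkp2 at 1.81 and 1.10 CPM (-0.08 on the log2 scale less the free RNA bound), and Dsg3 and Dsg1b were both 1.29-fold higher. Of 17 tight junction genes Cldn1, at 3.14 and 10.5 CPM, and Cldn17 were higher, and Cldn4 was at a log2 ratio of 0.56. Of 28 glutathione and detoxification genes 3 were higher and 3 lower, with Akr1b8 at 3.25 and 14.9 CPM and Gsta3 at 259 and 147 CPM.

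Markers of other cells were counted in the same way. Of 16 markers of dividing cells 13 were higher, with 77.8 CPM summed over the list in control and 109 in dry eye, and Mki67 was at 2.24 and 5.35 CPM. Without the 5% of cells with the most UMIs in each library, the log2 ratio of Mki67 was 0.69 in place of 1.26. That of Top2a was 0.61 in place of 1.43. With the free RNA bound subtracted they were 0.99 and 0.92. Of 9 limbal stem cell markers measured 5 were higher and 1 lower, with sums of 4504 and 5254 CPM, and of 9 conjunctival markers 5 were higher, with sums of 14844 and 18275 CPM. No gene of these 3 lists was at 0 in either library. Krt14, Ifitm3 and Atf3 are in the limbal list, and Krt17 and Krt6a in the conjunctival list. The sums of 13 immune markers were 13.7 and 11.5 CPM, with Cd3g, Lyz2 and Cd207 at 0 UMIs in both libraries and Ptprc at 1 and 0. Of keratocyte and fibroblast markers 4 were measured, with sums of 61.6 and 45.2 CPM, nearly all from Aldh1a1. The part of other cells in the Wing ratios was not tested.

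UMIs of the higher genes were found in part of the Wing cells. At 3000 UMIs per cell a gene at a low level is found in few cells even if all express it. A small share alone therefore does not show that only part of the cells carry a difference. In cells thinned to 3000 UMIs, control Wing cells had Krt14 in 5.32% (4.74 to 5.94). In dry eye it was 37.1% (35.4 to 38.7), beside 18.4% of dry eye Squam cells, the lowest class for this gene. Sprr1a was found in 5.005% and 35.4%, beside 1.40% of dry eye Basal cells. Krt16 was found in 1.42% and 22.8%, beside 4.94% of TAC1 cells. Median depth before thinning was 9518 UMIs in dry eye Squam cells and 6126 in Basal cells. For the other genes the dry eye share was smaller: 15.3% for Ndrg1, 9.18% for S100a7a, 7.44% for Cnfn, 6.65% for Sprr1b and 5.62% for Cdsn, with 2.45%, 0.420%, 0.237%, 0 and 0.164% in control. The 0 of 5475 control cells for Sprr1b allows a share of cells with a UMI of up to 0.0548% by the floor of 3 counts, and its exact upper limit is 0.0674%. This bounds detection at this depth and not the share of cells that express the gene. The lowest class had at most 1.44% for each of these 5 genes.

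A joint count took 7 of these genes: Cnfn, Sprr1a, Krt16, Cdsn, Krt14, S100a7a and Sprr1b. They are the 7 ranked first by the lower limit of the dry eye over control ratio in these same Wing cells. That choice builds in a gap between the libraries, so the counts are a description. Of control Wing cells 88.1% had none of the 7, and of dry eye Wing cells 37.2%. At least 2 of the 7 were found in 0.639% (0.446 to 0.888) of the control cells, against 31.5% (29.95 to 33.2) in dry eye. Without thinning the shares were 5.95% and 54.4%, so their size depends on depth. At least 4 were found in 0 control and 8.26% of dry eye cells. Dry eye cells with at least 2 had a median of 12922 UMIs before thinning and those with none 12297.5, so depth differed little between them. In control the 35 cells with at least 2 had a median of 20955 UMIs, against 10808.5 for cells with none.

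**Figure D4:**
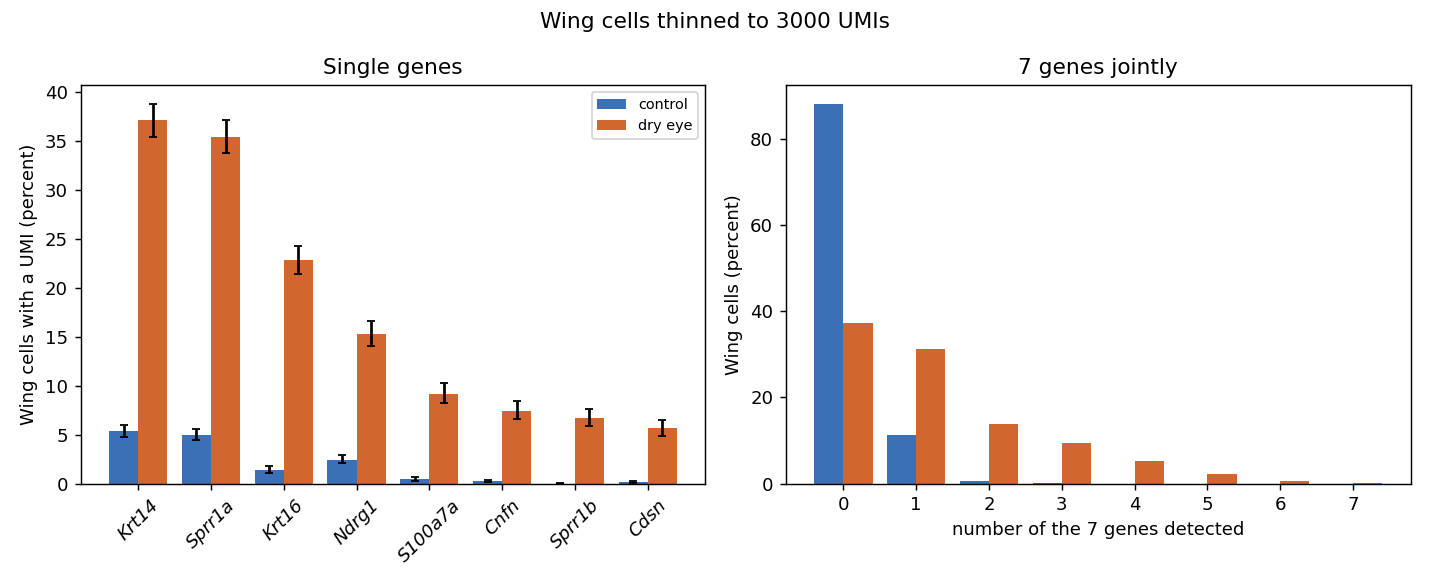
Left, percent of Wing cells with a UMI of 8 genes in control and dry eye, with exact 95% intervals; right, percent of Wing cells by how many of 7 genes were detected. All cells were thinned to 3000 UMIs; 37.1% of dry eye cells had Krt14, and 37.2% had none of the 7 genes.

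The same genes were compared in other classes. In Basal 14 of 4655 genes were at least 2-fold higher (0.301%) and 3 lower (0.0644%), and in Squam 40 of 3686 were higher (1.09%) and 25 lower (0.678%). Ndrg1 had a ratio of 7.42 in Wing, 1.77 (1.39 to 2.26) in Basal and 1.42 (1.38 to 1.47) in Squam, where its level was higher throughout, at 216 and 307 CPM. S100a7a likewise was at 171 CPM in control Squam and 420 in dry eye Squam, a ratio of 2.45, so the dry eye Wing level of 39.3 CPM stayed below the control Squam level. Cnfn was at 48.2 and 436 CPM in Squam, a ratio of 9.05. Krt14 was at 426 and 1147 CPM in Basal, a ratio of 2.69, and at 11.1 and 123 CPM in Squam. For Sprr1a the dry eye level was higher in Wing, at 680 CPM, than in Squam, at 484, or Basal, at 5.67. Of the markers, Cldn17 had a ratio of 4.90 (3.42 to 7.18) in Squam, from 1.07 to 5.24 CPM, and of 1.02 in Basal. Stress keratins had a median log2 ratio of 1.26 in Wing, 1.85 in Basal, 1.74 in TAC1 and 2.08 in TAC2. In LSC, Squam and Conj it was 1.07, 0.80 and 0.37. Cornified envelope genes had a median of 0.94 in Wing, 0.95 in Squam, 0.82 in TAC2 and 0.18 in Basal. In LSC, TAC1 and Conj it was 0.02, 0.30 and 0.33. These differences of ratios between classes were not tested.

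The lower genes were lower in several classes. Fxyd4 had a ratio of 0.474 in Basal, 0.583 in Squam, 0.277 in TAC1 and 0.353 in TAC2. Ttc36 had 0.356 in Basal and 0.448 in Squam. Cyp4a12a, measured in Wing, Squam and Conj, had 0.146 in Squam and 0.674 in Conj.

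Wing cells were then grouped by the class, other than Wing, whose profile was nearest. This grouping was chosen after the data were seen and uses the same genes, so it describes how the cells vary and tests nothing. In control 48.3% of Wing cells were nearest to Basal, 35.8% to Conj and 13.4% to Wing*, and in dry eye 22.4%, 18.9% and 32.8%. Another 11.5% of dry eye Wing cells were nearest to TAC2* and 10.6% to Squam*, against 0.743% and 0.142% in control. In the Basal group squamous markers had a median of 36 and 28 of 3000 UMIs and in the Conj group 78 and 79, while Wing markers had 4 and 3 in the Basal group and 3 and 2 in the Conj group. At least 2 of the 7 genes were found in 3.80% of dry eye cells of the Basal group, 7.77% of the Conj group, 52.5% of the Wing* group and 79.0% of the Squam* group.

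In the Basal group 10 of 4846 genes were at least 2-fold higher in dry eye and 1 lower. In the Conj group it was 5 and 1 of 4518, and in the Wing* group 87 and 44 of 4819. These groups held 2729, 2022 and 759 control cells and 759, 641 and 1111 dry eye cells. The Wing* profile was made from dry eye cells alone, so the counts describe the grouping and are not a result about the groups. Sprr1a was at 10.8 and 15.3 CPM in the Basal group, a ratio of 1.43, at 29.2 and 72.6 CPM in the Conj group and at 32.1 and 1123 CPM in the Wing* group. Ndrg1 had a ratio of 1.23 in the Basal group, 1.29 in the Conj group and 11.9 in the Wing* group. Krt14 was higher in these 3 groups, at 46.1 and 234 CPM in the Basal group, 11.6 and 52.1 in the Conj group and 20.9 and 839 in the Wing* group. Krt16 had a ratio of 22.9 in the Basal group, on levels of 0.710 and 16.3 CPM, and of 2.01 in the Conj group. Cyp4a12a was lower in all 3 groups, with ratios of 0.424, 0.371 and 0.0734. Krt12 had ratios of 0.933, 0.841 and 1.03, and Muc15 of 0.680, 0.711 and 0.938.

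**Figure D5:**
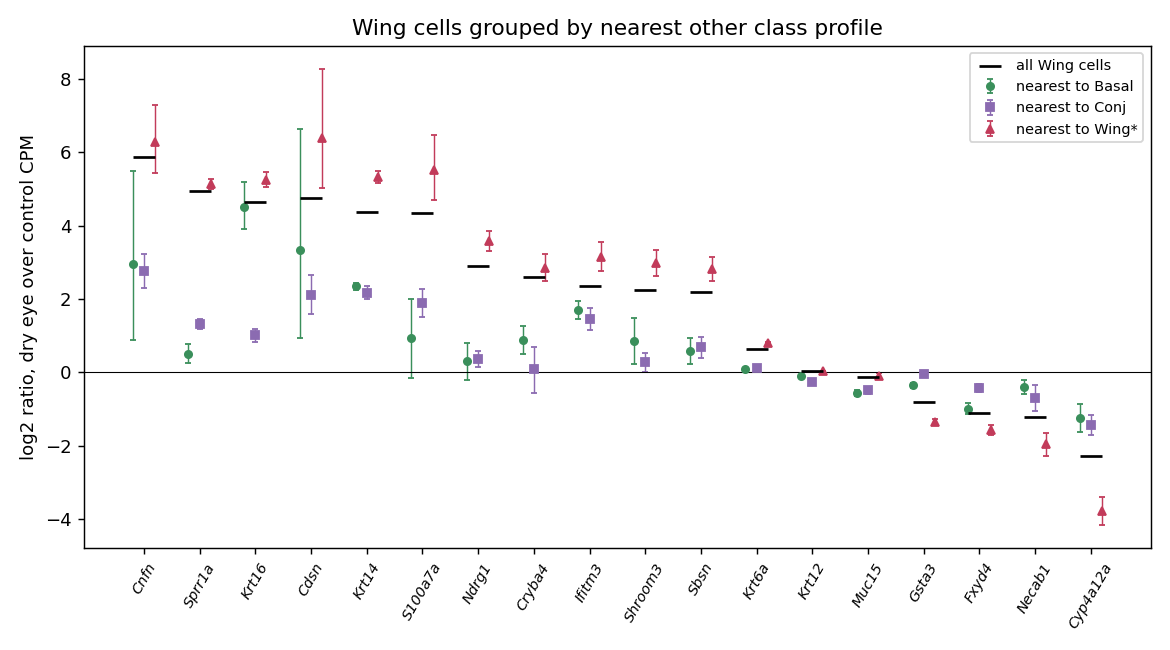
Dry eye over control log2 ratio of 18 genes in Wing cells grouped by the nearest other class (points with exact 95% intervals from counting) and in all Wing cells (black bars). Sprr1a, Ndrg1 and Sbsn lie nearer to 0 in the Basal and Conj groups than in the Wing* group, where the ratio of Sprr1a is 35.0.

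Wing*, the class that shares its name with Wing, had 446 cells in dry eye and 12 in control. Within dry eye 248 of 4746 genes were at least 2-fold higher in Wing* than in Wing (5.23%) and 157 lower (3.31%). S100a9 was at 7.33 CPM in Wing and 1798 in Wing*, S100a8 at 1.83 and 481 CPM, Dmkn at 8.14 and 785 CPM, and Sprr2f at 0 and 20.4 CPM. On the lower side Spink7, a Wing marker, was at 39.7 and 5.85 CPM, Ttc36 at 81.3 and 10.2 CPM and Ces1d, a carboxylesterase, at 75.7 and 10.1 CPM. Ttc36 and Ces1d were lower in dry eye Wing than in control Wing too, where they were at 161 and 125 CPM. Krt14 was at 577 CPM in dry eye Wing and 9368 in Wing*, Krt12 at 31536 and 16694 CPM and Dsg1a at 400 and 167 CPM, while Dsp was at 1461 and 1314 CPM. Since both classes were made from these cells, this is a description.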

How the data were processed

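The deposited table holds counts of UMIs for 17891 genes in 33885 cells, with a cell table by the authors that gives each cell's library and 1 of 13 classes. Libraries were made with a droplet 3' kit, per the labels' protocols. Positions on a map of the cells, a score in arbitrary units that the authors deposited, were not used. The submitters' processing notes name Cell Ranger 6.0.1, Seurat 4 and the mm10 genome. How cells, doublets and free RNA were filtered, and what an asterisk in a class name means, was found in no label or header. No doublet caller was run.

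From these counts UMIs were summed per class and library and divided by the sum to give CPM (Python 3.11.15, numpy 2.4.6, scipy 1.17.1, pandas 2.3.3, matplotlib 3.10.9). A ratio is dry eye over control with an exact conditional (Clopper-Pearson) 95% interval, and shares have exact Clopper-Pearson intervals. On a simulated Wing comparison of 4587 genes 95.0% of the unchanged genes had the true ratio inside the interval. The simulated sums were Poisson counts, as the interval assumes, with no variation between cells or libraries. This checks the calculation and cannot show how well the intervals hold for real counts. Genes needed 50 UMIs and 20 CPM in 1 library and were called at 2-fold. The free RNA bound is the upper 95% limit of UMIs per cell in the class with fewest. Nearest class was the highest correlation with a class mean profile over the 2000 most variable genes. Named genes were the 12 leading Wing genes, the 12 highest and 12 lowest ratios, up to 2 per list and direction, 10 fixed genes, and the 6 most different from Wing* in each direction. Other genes were named as list members. Wing and the lists were chosen with earlier results of these data known. Some members of the lists are not reported here by name.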

Additional observations from a re-analysis of the deposited data

Results flagged for a closer look

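Sbsn, which encodes suprabasin, had opposite ratios in 2 classes. In Wing it was at 6.71 CPM in control and 30.9 CPM in dry eye, a ratio of 4.60 (4.19 to 5.06). In LSC it was at 23.3 and 14.3 CPM, from 35 and 61 UMIs, a ratio of 0.614 (0.399 to 0.958). With 1 library per group the difference was not tested.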

How the results depend on the processing

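With 1 library per group no library could be left out. No paired analysis was possible because each group has 1 library. Without the 5% of cells with the most UMIs, Wing made up 30.3% of control and 18.7% of dry eye cells. With cells kept whose nearest profile was Wing the shares were 24.1% and 11.7%. The dry eye share was 23.2% without the starred classes and 23.4% with Wing* counted in, when dry eye had 1.34 Wing cells per Basal cell and 1.29 per Squam cell.

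Against 48 higher and 4 lower of 4755 genes within Wing, size factors gave 62 and 2 of 4755. A minimum of 20 UMIs and 5 CPM gave 107 and 10 of 8495, and 200 UMIs and 50 CPM gave 22 and 1 of 2344. Wing with Wing* gave 83 and 13 of 4798. Cells nearest to Wing gave 28 higher of 4753 genes, 27 of them among the 48. Subtracting a free RNA bound gave 37 and 2 of 4755. Groups by the nearest other class were chosen after seeing the data. They gave 10 and 1 of 4846 for Basal, 5 and 1 of 4518 for Conj and 87 and 44 of 4819 for Wing*. Lists with a median at least 1.5-fold higher numbered 2 in all Wing cells and 0, 0 and 4 in these groups. The cornified envelope median had the other sign in the Basal group, at -0.050, and in the Conj group C1galt1 was at -0.19, Hmox1 at -0.30 and Mki67 at -0.69. These 3 genes were past 2-fold in all Wing cells, but they stayed under 20 CPM and so are not among the 48. Over all named genes 58 of 1552 values had the other sign, 40 of them in the Basal and Conj groups, and so had 33 of 231 list medians. The cause was not tested. With the minimum of 50 UMIs alone, 45 named genes were past 2-fold, and part of them missed the minimum of 20 CPM. Of their 549 values 476 stayed past 2-fold, so this count is not limited to called genes.

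Cells with at least 2 of the 7 genes made up 0.249% of control and 27.0% of dry eye Wing cells at 2000 UMIs, and 5.95% and 54.4% without thinning. At 200 UMIs and 50 CPM, 134 genes were higher and 81 lower in Wing* than in Wing. A gene with 0 UMIs in control Wing was set to 0.0356 CPM, the value of the floor of 3 counts.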
